A study of Homo sapiens with 9 samples.

Results

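ETS family transcription factors share a winged-helix ETS domain that binds DNA around the core GGAA. The genes described here were 10 members of that family, ETS1, ETS2, ERG, FLI1, ELK3, ETV6, ELF1, SPI1, SPIB and GABPA, found by their GENCODE 44 symbols among 62700 genes. They were chosen with earlier results of these data known, and ELK3 was selected on its higher estimated counts in the knockout libraries. ELK3's difference from the control is therefore given as a description with no test, while the other 9 members were taken as family members by symbol. All 10 passed the filter on low counts.

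RNA was sequenced from HAL-01, a leukemia line of the B cell acute lymphoblastic type (B-ALL) with the t(17;19) translocation, which makes the fusion transcription factor TCF3::HLF. All 9 libraries came from HAL-01 cells that stably expressed Cas9GFP and were collected at Day13. The MEF2C Enhancer KO class (KO below) held 3 libraries with sgRNA_96 and 3 with sgRNA_97, both directed at the HLF binding site within the TCF3::HLF-bound MEF2C enhancer, and 3 control libraries carried the scrambled guide SCR1. The knockout thus concerns an enhancer and not an ETS gene, in 1 cell line, and the share of edited cells in each library was not analysed here. The labels number the libraries 1, 3 and 4 in every group and do not say whether they came from separate cultures, so p-values measure the spread between these libraries, which may be technical.

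Libraries held between 15212462 and 29777361 estimated counts. The B-ALL markers summed to between 4368 and 4577 TPM (a level per transcript length) in SCR1 and to between 4367 and 4712 in KO. All 8 of them were tested and 1 passed in KO (12.5%, beside 20.7% of all genes tested). This was DNTT, with means of 1506.5 TPM in SCR1 and 1812 TPM in KO (adjusted p = 3.28e-04, edgeR). IGLL1 had means of 1765 TPM in SCR1 and 1567 TPM in KO and did not pass (adjusted p = 0.0543). CD3D, CD3E and CD3G of T cells were at 0 in every library. Myeloid markers summed to between 16.01 and 19.1 TPM in SCR1 and to between 15.6 and 20.8 in KO. CSF1R made up most of this sum, with means of 13.3 TPM in SCR1 and 10.4 TPM in KO. As counts relative to the scaled library size, MPO (2.12-fold) and ITGAM (1.67-fold) rose. MPO rested on 45 to 146 counts per library, and its TPM ranges in SCR1 and KO overlapped. MEF2C, the gene of the targeted enhancer, had a mean of 552 ± 13.4 CPM (counts relative to the scaled library size, SD, n = 3) in SCR1, and KO had 509 ± 22.1 CPM (n = 6). Its log2 fold change of -0.12 (SE 0.042) did not pass the test, with an adjusted p of 0.0620 by the quasi-likelihood test of edgeR. MEF2C passed with DESeq2 (-0.12, adjusted p = 0.0265) and, by edgeR, without sgRNA_97 replicate 1 (-0.14, adjusted p = 0.0143).

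Members of the family differ in what they do once bound. ELK3, with its relatives ELK1 and ELK4, is a ternary complex factor that joins serum response factor (SRF) at promoters of immediate early genes, and it acts largely as a repressor until mitogen-activated kinases phosphorylate it. ETV6 is a repressor that is often rearranged in leukemia. ERG and FLI1 belong to the group of regulators that maintain hematopoietic stem cells. SPI1 encodes PU.1, which drives myeloid and early B cell programs, the latter together with its relative SPIB. GABPA pairs with a GABPB subunit at promoters of mitochondrial and housekeeping genes. ETS1, ETS2 and ELF1 are activators in lymphoid and other cells.

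The members covered a wide range of levels, compared here per length as TPM. ETS2 was highest at 239 ± 1.65 TPM (SD, n = 3) in SCR1, followed by ERG at 109 ± 7.55 and ELF1 at 102 ± 6.27 TPM. The SCR1 ranges of ERG and ELF1 overlapped, whereas in KO all ERG values, from 133 TPM, lay above all ELF1 values, which reached 114 TPM. FLI1 stood at 59.5 ± 1.71 TPM and SPI1 at 49.7 ± 2.92 TPM in the control. ELK3 followed at 24.3 ± 0.663 TPM, below SPI1 in every control library, and in KO its range of 38.7 to 47.3 TPM overlapped that of SPI1, 42.8 to 51.9 TPM. GABPA and ETV6 had overlapping ranges around 14.0 and 13.9 TPM in SCR1. ETS1 lay below both at 7.13 ± 0.751 TPM. SPIB was lowest, between 0.323 and 1.62 TPM in SCR1, and rested on 7 to 51 counts per library.

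**Figure D1:**
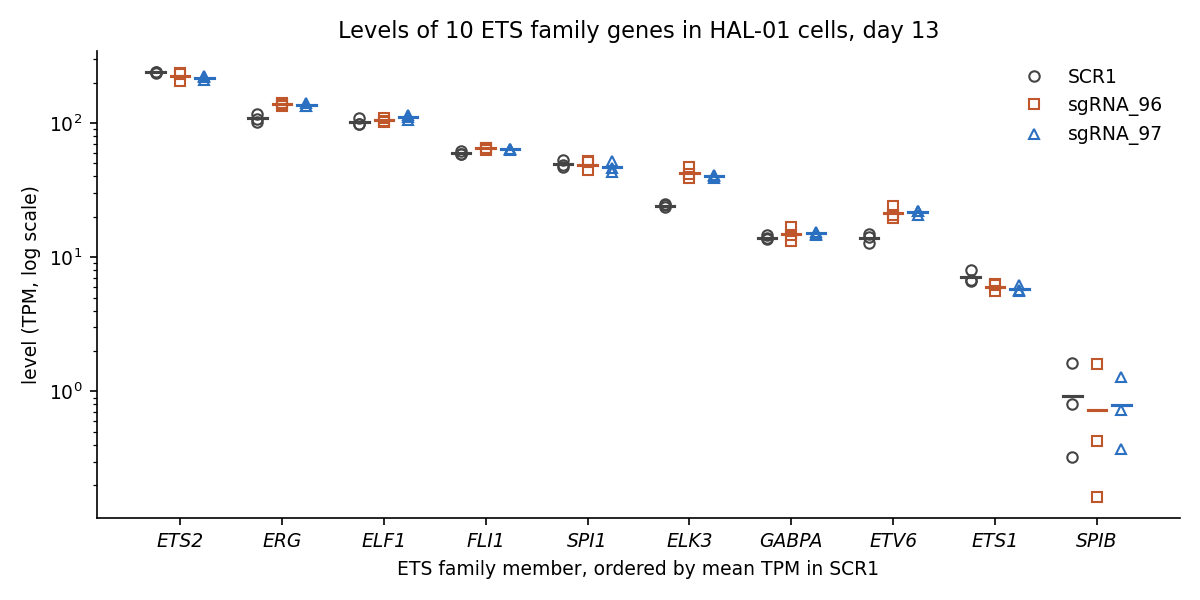
TPM (log axis) of the 10 members in each of the 9 libraries, by guide, with a bar at the mean of 3 libraries. Members run from ETS2, near 239 TPM in SCR1, to SPIB, below 2 TPM. ELK3, ETV6, ERG and FLI1 show knockout points above all their control points, and ETS1 and ETS2 show them below.

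Within the summed TPM of the 10 members, ELK3 took between 3.89 and 3.97% in SCR1 and between 5.79 and 6.86% in KO. The share of ETS2 ran from 38.0 to 39.5% in SCR1 and from 32.4 to 34.3% in KO. Neither pair of ranges overlapped. ELK3 was selected for its rise, and shares of the same sum are tied, so the share of ETS2 also falls when other members rise. The TPM of ETS2 itself was 239 ± 1.65 in SCR1 and 221 ± 11.7 in KO (SD). The sum itself was between 606 and 628 TPM in the control libraries and between 636 and 689 TPM in the knockout libraries. In RNA from bulk cultures, a change in the mix of cells and a change of RNA per cell cannot be told apart.

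ELK3 (ENSG00000111145.8) is a plus-strand gene of chromosome 12, spanning 96194375 to 96269824 in hg38. In SCR1 its expression was 71.6, 73.8 and 67.3 CPM in replicates 1, 3 and 4. With sgRNA_96 the values were 119, 113 and 127 CPM, and with sgRNA_97 they were 127, 120.4 and 118 CPM. Every knockout library stood above every control library, and the 2 guides overlapped each other. The means were 70.9 ± 3.32 CPM (SD, n = 3) in SCR1 and 121 ± 5.603 CPM (n = 6) in KO, a ratio of 1.70. On the log2 scale the difference was 0.77 (SE 0.052) for KO, 0.75 (SE 0.061) for sgRNA_96 and 0.78 (SE 0.061) for sgRNA_97. Over the alternatives the KO value stayed between 0.73 and 0.79.

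ETV6 (ENSG00000139083.11, chromosome 12, 11649674 to 11895377, plus strand) lies on the same chromosome as ELK3. Its SCR1 values were 58.7, 67.8 and 63.2 CPM. With sgRNA_96 the libraries held 88.6, 93.0 and 103.9 CPM, and with sgRNA_97 they held 96.6, 97.3 and 96.2 CPM. The groups did not overlap, and the control spread of 4.58 CPM (SD) was small beside the difference. ETV6 rose 1.52-fold in KO, by a log2 fold change of 0.60 (SE 0.058, adjusted p = 4.02e-06, edgeR). Both guides gave a rise, of 0.59 with sgRNA_96 (adjusted p = 6.69e-05) and 0.62 with sgRNA_97 (adjusted p = 4.62e-05). All 15 alternatives kept the call.

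ERG (ENSG00000157554.20, chromosome 21, 38380027 to 38661780, minus strand) was at 289, 271 and 267 CPM in SCR1. It was at 354, 354 and 344 CPM with sgRNA_96 and at 364, 349.5 and 331 CPM with sgRNA_97. Again no knockout library reached down to the control. ERG rose 1.27-fold, with a log2 fold change of 0.34 (SE 0.042, adjusted p = 4.78e-05, edgeR), and all 15 alternatives kept the call. By guide the log2 fold change was 0.35 with sgRNA_96 (adjusted p = 5.20e-04) and 0.34 with sgRNA_97 (adjusted p = 5.94e-04). A same-strand long noncoding gene that overlaps ERG, ENSG00000289404, held TPM equal to 8.45% of that of ERG, and the division of reads between them rests on Salmon.

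ETS1 (ENSG00000134954.14, chromosome 11, 128458761 to 128587558, minus strand) moved the other way. Its values were 26.2, 30.1 and 25.5 CPM in SCR1, 23.2, 22.4 and 22.9 CPM with sgRNA_96 and 23.2, 22.1 and 22.0 CPM with sgRNA_97. All 6 knockout libraries were below the lowest control library, and SCR1 replicate 3 was the highest. ETS1 fell to 0.830 of its control mean, with a log2 fold change of -0.27 (SE 0.069, adjusted p = 0.0124, edgeR). The call was lost without SCR1 replicate 3 (log2 fold change -0.20, adjusted p = 0.0746), with a gene length offset (adjusted p = 0.0611) and with limma on log2(TPM + 1) (adjusted p = 0.166). By guide it passed with sgRNA_97 (log2 fold change -0.28, adjusted p = 0.0354), while with sgRNA_96 the value was -0.25 (adjusted p = 0.0631). The sgRNA_97 call held in 5 of 12 alternatives and was lost with the gene length offset (0.117), with limma (0.241), without any one sgRNA_97 library (0.0548 to 0.115) and without SCR1 replicate 1 (0.0670) or 3 (0.121).

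**Figure D2:**
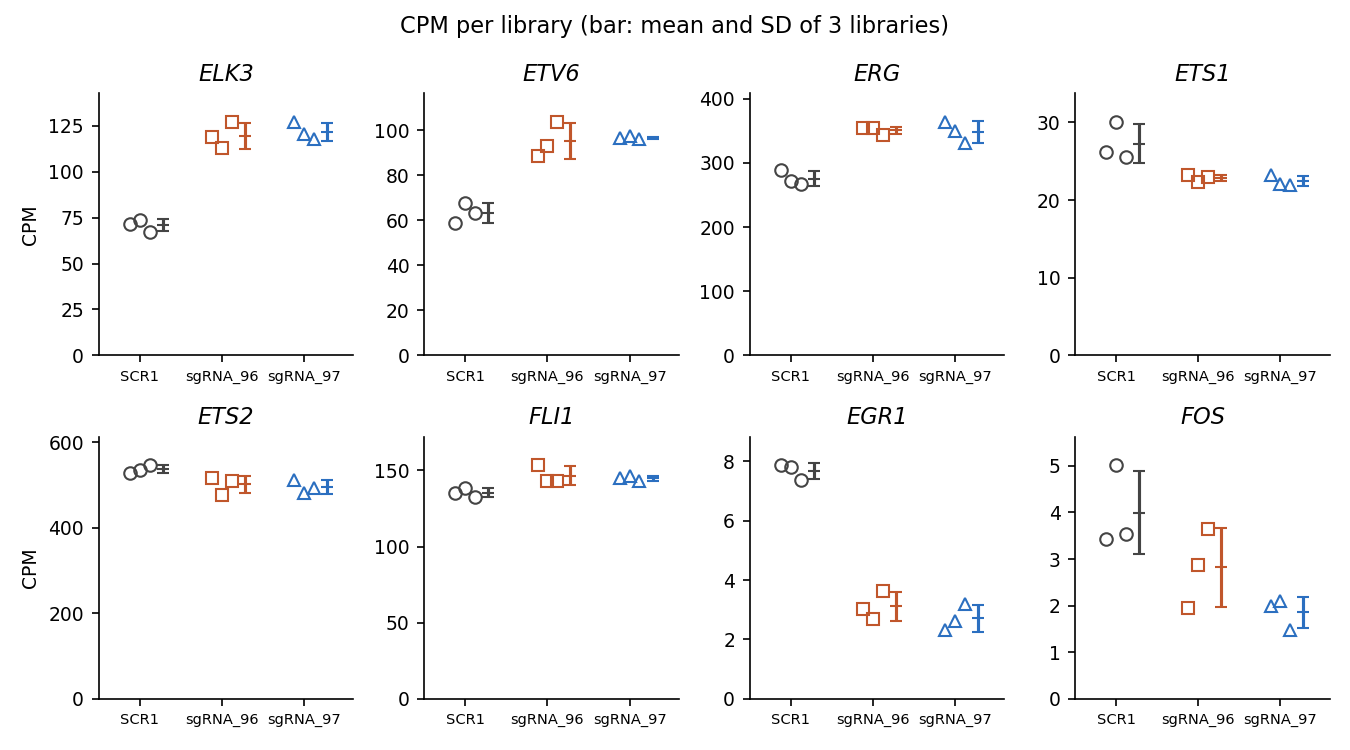
CPM (y axis, from 0) per library for 6 members and for EGR1 and FOS, by guide, with the mean and SD of 3 libraries beside the points. ELK3, ETV6, ERG and FLI1 have knockout points above all control points, ETS1, ETS2 and EGR1 have them below, and the FOS points of sgRNA_96 overlap the control.

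The remaining members did not pass the test in KO. ETS2 was at 529, 534 and 547 CPM in SCR1 and between 478 and 517 CPM in KO, with a median of 502, and these ranges did not overlap. Its log2 fold change was -0.11 (SE 0.039, adjusted p = 0.0625, edgeR). FLI1 was at 135, 138 and 132 CPM in SCR1 and between 143 and 154 CPM in KO, with a median of 144, again without overlap. Its log2 fold change was 0.11 (SE 0.041, adjusted p = 0.0801). ELF1 was at 206, 223 and 208 CPM in SCR1 and between 219.7 and 238 CPM in KO, with a median of 234. Its log2 fold change of 0.13 (SE 0.043) had an adjusted p of 0.0504, and with sgRNA_97 alone it was 0.16 (adjusted p = 0.0483), a call that 9 of 12 alternatives lost, among them the replicate block (0.0637), no filter on low counts (0.115), the gene length offset (0.265), limma on log2(TPM + 1) (0.328) and leaving out any one of 5 libraries (0.100 to 0.194). These 3 genes sat close to the threshold, and DESeq2 called each of them (adjusted p = 0.0229 for ETS2, 0.0444 for FLI1 and 0.0186 for ELF1). Leaving out sgRNA_96 replicate 1 also brought ETS2 (adjusted p = 0.0316) and ELF1 (0.0344) past the threshold, and for ELF1 so did leaving out sgRNA_96 replicate 3 (0.0458) or SCR1 replicate 3 (0.0390) and RLE size factors (0.0499).

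GABPA had values of 52.9, 53.7 and 54.7 CPM in SCR1 and between 52.2 and 59.95 CPM in KO, with a log2 fold change of 0.09 (SE 0.052, adjusted p = 0.267, edgeR). Its gene model overlaps the abundant ATP5PF on the opposite strand, and its counts are uncertain because the sources used here do not say if reads were counted by strand. SPI1 was at 48.1, 41.6 and 45.3 CPM in SCR1 and between 38.5 and 47.7 CPM in KO (log2 fold change -0.06, SE 0.075, adjusted p = 0.617). For SPIB the SCR1 values were 1.73, 0.912 and 1.28 CPM and the KO values ran from 0.380 to 1.46 CPM. Its log2 fold change of -0.82 had an SE of 0.40 and an adjusted p of 0.162, so no difference was detectable at this depth. SPIB also shares its strand and part of its model with ENSG00000142539.

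Across the family, 4 of the 10 members passed the test in KO, 3 higher and 1 lower, where 20.7% of the 14436 genes tested passed in either direction, 10.1% as higher and 10.6% as lower. ELK3 is among the 3 higher ones by its selection, and without it 3 of 9 passed. The CPM ranges of KO and SCR1 did not overlap for 5 of the 9 members other than ELK3, against 20.3% of all genes tested. With sgRNA_96, 2 of the 9 members other than ELK3 passed (11.2% of all genes) and with sgRNA_97, 4 of them passed (15.1%). The 3 SCR1 libraries serve as the control in both of these comparisons. The median log2 fold change of the 9 members other than ELK3 was 0.09, beside 0.0028 for all genes tested, and the median size without sign was 0.125 beside 0.147. As the members were chosen with results known, nothing particular to the family is read from these counts.

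No member had been chosen on the comparison of sgRNA_97 with sgRNA_96. None of the 10 members passed it, where 3 genes passed in all (0.0208%) and 503 had an unadjusted p under 0.05 by edgeR, 8 genes passing with DESeq2. None of the members had an unadjusted p under 0.05. For ELK3 the log2 difference was 0.03, with a 95% confidence interval from -0.10 to 0.16, and the sign turned with a gene length offset (-0.075) and with limma on log2(TPM + 1) (-0.080). The interval was -0.12 to 0.17 for ETV6, -0.12 to 0.099 for ERG and -0.21 to 0.15 for ETS1. For ELK3 and ETV6 both ends lay within 0.17 of 0, where the differences from SCR1 were at least 0.59 with either guide. For SPIB the interval, -0.58 to 1.62, left a wide range.

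**Figure D3:**
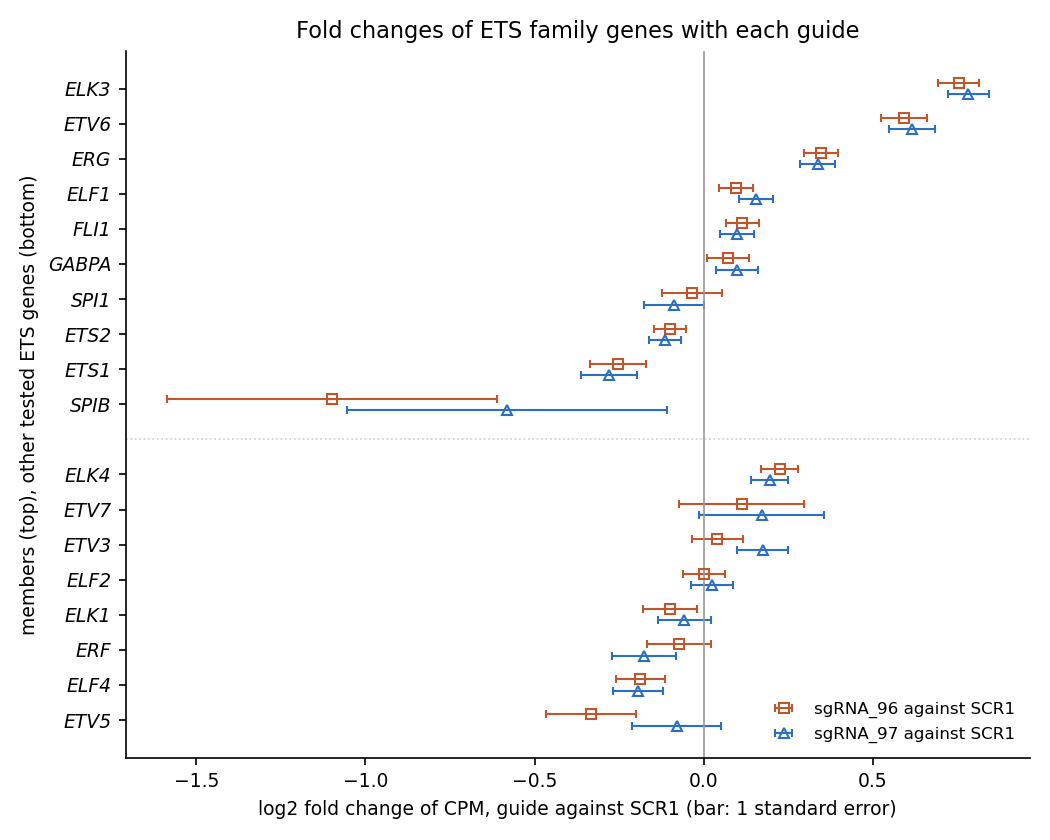
Log2 fold change of CPM (x axis) against SCR1 for each guide, with bars of 1 standard error, for the 10 members and, below the dotted line, the 8 other ETS genes tested. The 2 guides lie within 0.03 of each other for ELK3, ETV6, ERG and ETS1, and SPIB has the widest bars.

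Of 18 further genes of the ETS family, 8 passed the filter on low counts and 2 of these passed the test in KO (25.0%, beside 20.7% of all genes tested). ELK4, the third ternary complex factor, rose from 91.3 ± 2.87 CPM (SD, n = 3) to 106 ± 3.77 CPM (n = 6), a log2 fold change of 0.21 (adjusted p = 0.00437, edgeR), and the call was lost with limma on log2(TPM + 1) (0.158). ELF4 fell from 48.3 ± 3.28 to 42.3 ± 2.13 CPM (-0.19, adjusted p = 0.0331), and its call was lost without any one of sgRNA_96 replicates 3 and 4, sgRNA_97 replicates 3 and 4 and SCR1 replicates 1 and 3, with adjusted p from 0.0532 to 0.135. The remaining 6, ELK1, ETV3, ETV5, ETV7, ELF2 and ERF, had log2 fold changes from -0.20 (ETV5) to 0.14 (ETV7). ELK1, also a ternary complex factor, was at 42.8 ± 2.47 CPM in SCR1 and 40.6 ± 2.88 CPM in KO (adjusted p = 0.439).

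Most members were read from 1 or a few annotated transcripts. ELK3-201 held 92.6% of the TPM of ELK3 over all libraries, and its own level was 20.8 to 23.9 TPM in SCR1 and 35.1 to 41.4 TPM in KO. ETV6-202 held 96.5% of the TPM of ETV6, at 12.4 to 14.9 TPM in SCR1 and 18.9 to 23.2 TPM in KO. For both genes the difference in level therefore lay in the main transcript, with no overlap between groups. ETS1-201, with 92.6% of the TPM of ETS1, was at 6.30 to 7.46 TPM in SCR1 and 5.04 to 5.67 TPM in KO.

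ERG was divided among ERG-203 (29.6%), ERG-201 (29.0%) and ERG-210 (22.5%), which start at 38498442, 38498477 and 38498476 on chromosome 21. These starts lie close together and far inside the gene model, and the start of ERG-203 is 162225 bases downstream of the most distal RefSeq start. ERG-203 was at 25.4 to 32.8 TPM in SCR1 and 35.5 to 49.97 TPM in KO, without overlap, whereas the TPM of ERG-201 and ERG-210 overlapped between the groups. ETS2 used 2 starts, at 38805929 (ETS2-202, 53.1%) and 38809403 (ETS2-206, 40.5%), and the shares overlapped between KO and SCR1. ELF1-201 held 49.7 to 54.6% of the TPM of ELF1 in SCR1 and 55.0 to 64.2% in KO, the one main transcript of a member other than SPIB whose share did not overlap. FLI1 was divided between FLI1-210 (61.0%) and FLI1-203 (31.0%), which is annotated as a target of nonsense-mediated decay. Shares of transcripts that differ by few bases rest on Salmon's division of reads, and no test was run on them.

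The promoters of the 3 highest-rising members are shown because these genes rose together while starting from very different levels. Each stretch is the 250 bases before a start that matches a main transcript, from the RefSeq table for GRCh38.p14, written 5′ to 3′ on the strand of the gene, and capitals mark the ETS core GGAA or its reverse complement TTCC.
ELK3 promoter, chr12:96194125-96194374, plus strand: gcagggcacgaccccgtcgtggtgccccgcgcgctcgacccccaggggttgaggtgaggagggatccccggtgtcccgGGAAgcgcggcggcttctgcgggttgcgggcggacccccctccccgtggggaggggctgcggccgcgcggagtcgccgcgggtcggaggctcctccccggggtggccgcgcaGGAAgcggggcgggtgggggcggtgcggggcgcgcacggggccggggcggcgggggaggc
ETV6 promoter, chr12:11649424-11649673, plus strand: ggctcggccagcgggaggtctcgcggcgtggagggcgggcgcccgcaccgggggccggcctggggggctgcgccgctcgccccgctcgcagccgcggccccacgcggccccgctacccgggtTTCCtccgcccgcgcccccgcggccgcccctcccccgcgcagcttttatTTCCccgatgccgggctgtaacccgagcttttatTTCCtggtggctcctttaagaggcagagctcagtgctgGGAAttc
ERG promoter, chr21:38498478-38498727, minus strand: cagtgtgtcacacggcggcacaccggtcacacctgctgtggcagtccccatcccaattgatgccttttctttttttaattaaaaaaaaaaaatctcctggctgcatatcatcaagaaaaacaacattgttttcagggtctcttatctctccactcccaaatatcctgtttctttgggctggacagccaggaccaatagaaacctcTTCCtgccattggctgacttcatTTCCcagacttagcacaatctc
ELK3's stretch is 82.0% G and C and holds 2 cores, ETV6's is 74.4% with 4, and ERG's is 44.8% with 2. The core is short, and 92.7% of 35116 promoters of this length hold at least 1, with a median of 3. The longer ETS string CCGGAAGT, searched on both strands, stood in 3.42% of promoters and in none of these 3, while the GABPA promoter held 1. The HLF strings TTACGTAA (0.105% of promoters) and TTACATAA (0.834%), searched on both strands, were in none of the promoters of the 7 members that the table covers, which leaves ETS1, FLI1 and SPI1 out. A match is a string of letters, and its absence says only that these letters are not in this window.

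The genes around the members were read next. Within 500 kb of the start of ELK3 lay 8 protein-coding genes, of which 4 were tested and 2 passed in KO. Of all genes tested, 20.7% passed, and so few neighbours show nothing about the region. LTA4H, the leukotriene A4 hydrolase, rose from 116 ± 3.95 to 134 ± 9.84 CPM (log2 fold change 0.22, adjusted p = 0.0146, edgeR) and SNRPF, a core protein of spliceosomal particles, fell from 73.1 ± 2.11 to 63.8 ± 3.99 CPM (-0.20, adjusted p = 0.0194). The call of LTA4H was lost without SCR1 replicate 1 (adjusted p = 0.0948) and that of SNRPF without SCR1 replicate 4 (0.101). CDK17 had a log2 fold change of 0.18 (adjusted p = 0.0986) and passed without sgRNA_96 replicate 1 (0.0330) or without SCR1 replicate 3 (0.0488). HAL was close to undetected, with 3 to 15 counts per library. All of these differences were smaller in size than the 0.77 of ELK3, apart from HAL at 1.44 (adjusted p = 0.0620), which passed with the gene length offset (0.0297) and without sgRNA_97 replicate 1 (0.0396) or SCR1 replicate 3 (0.0312).

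Members that neighbour each other had log2 fold changes of opposite sign, although FLI1 (adjusted p = 0.0801, edgeR) and ETS2 (0.0625) did not pass the test. By the outer starts of the gene models, FLI1 lies 99.0 kb from ETS1 and had a log2 fold change of 0.11 where ETS1 had -0.27. ERG lies 143 kb from ETS2 by the same measure, with 0.34 for ERG and -0.11 for ETS2. The main transcripts start further apart, at 128522310 (ETS1-201) and 128686535 (FLI1-210), and at 38498442 (ERG-203) and 38805929 (ETS2-202). PSMG1, a proteasome assembly chaperone on the other side of ETS2, fell from 62.9 ± 4.28 to 50.7 ± 1.98 CPM (-0.31, adjusted p = 8.74e-04, edgeR) in all 15 alternatives.

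The partners of the family and the genes that set its activity were examined as a list of 23, of which 21 were tested and 6 passed in KO (28.6%, beside 20.7% of all genes), 2 higher and 4 lower. The median log2 fold change of the list was -0.04. LMO2, the bridging protein that stem cell complexes with ERG and FLI1 are built on, was at 109, 102 and 102 CPM in SCR1 and between 146 and 157 CPM in KO. It rose by a log2 fold change of 0.56 (SE 0.044, adjusted p = 6.77e-07, edgeR). RUNX1, another partner in those complexes, was at 189.7, 177 and 179 CPM in SCR1 and between 127 and 154 CPM in KO, and it fell (-0.37, adjusted p = 1.96e-04). LMO2 and RUNX1, like ERG, kept their calls in all 15 alternatives. On the same list, GATA2 was at 0 CPM in every library, TAL1 reached at most 0.105 CPM, and LYL1 did not pass (0.038, adjusted p = 0.819). Whether these partners form a complex in these cells was not tested.

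SRF, the partner of the ternary complex factors, fell from 85.4 ± 3.85 to 72.8 ± 4.86 CPM (log2 fold change -0.23, adjusted p = 0.00873, edgeR), and MRTFA, the competing SRF coactivator, fell from 107 ± 4.23 to 86.3 ± 5.01 CPM (-0.31, adjusted p = 7.29e-04). IRF4, which binds composite sites with PU.1 and SPIB, fell from 77.1 ± 0.499 to 63.6 ± 5.04 CPM (-0.28, adjusted p = 0.00419), and GABPB1, the partner of GABPA, rose from 71.6 ± 4.22 to 80.8 ± 3.77 CPM (0.18, adjusted p = 0.0282). SRF lost its call without SCR1 replicate 1 (adjusted p = 0.0650) and with limma on log2(TPM + 1) (0.0756), where IRF4 (0.0557) and MRTFA (0.130) lost theirs too, MRTFA also with the gene length offset (0.0662). GABPB1 lost its call without sgRNA_97 replicate 1 or 3 and without SCR1 replicate 1 or 4 (adjusted p from 0.0509 to 0.153).

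Genes known to be driven by SRF with ternary complex factors formed a list of 11, of which 9 were tested and 4 passed (44.4%, beside 20.7% of all genes), all lower in KO. With sgRNA_96 alone 1 of the 9 passed (11.1%, beside 11.2% of all genes) and with sgRNA_97 alone 3 did (33.3%, beside 15.1%). The median log2 fold change in KO was -0.55, beside 0.0028 for all genes tested. EGR1, an immediate early transcription factor, was at 7.88, 7.81 and 7.37 CPM in SCR1, at 3.03, 2.68 and 3.64 CPM with sgRNA_96 and at 2.32, 2.63 and 3.21 CPM with sgRNA_97. Every knockout library was below every control library, and the EGR1 log2 fold change was -1.40 (SE 0.15, adjusted p = 1.14e-05, edgeR), a call that all 15 alternatives kept. FOS, a subunit of AP-1, was at 3.43, 5.02 and 3.55 CPM in SCR1 and between 1.48 and 3.64 CPM in KO, and the groups overlapped. It fell by a log2 fold change of -0.75 (SE 0.25, adjusted p = 0.0397). By guide the FOS value was -0.49 with sgRNA_96 (adjusted p = 0.250) and -1.09 with sgRNA_97 (adjusted p = 0.0147), and the difference between the guides, -0.61, did not pass (unadjusted p = 0.0462, adjusted p = 1.00). NR4A1, an early-response nuclear receptor, fell from 2.79 ± 0.501 to 1.61 ± 0.232 CPM (-0.78, adjusted p = 0.0192). The fourth was SRF itself.

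These genes were low, with 35 to 232 counts per library for EGR1, 25 to 101 for FOS and 21 to 68 for NR4A1. FOS lost its call without any one of 7 libraries, all but sgRNA_96 replicates 3 and 4 (adjusted p up to 0.177, without SCR1 replicate 3). NR4A1 lost it without SCR1 replicate 3 (0.0977) or 4 (0.0650). Leaving out any one SCR1 library left 2 genes of the list called. Calls over all genes tested fell too, from 2984 to 1503, 2411 and 1813 without SCR1 replicates 1, 3 and 4. EGR2, FOSB, JUNB and MCL1 had log2 fold changes below 0 without passing, from -0.99 for EGR2 to -0.09 for MCL1, and IER2 had 0.04 (adjusted p = 0.747). In the separate list of 5 genes known as ELK3 targets, 3 were tested and 2 passed, EGR1 and FOS, both lower. Both are on the SRF list too, and 20.7% of all genes passed in either direction, 10.6% as lower. With sgRNA_96 alone 1 of the 3 passed (33.3%, beside 11.2% of all genes), and with sgRNA_97 alone 2 did (66.7%, beside 15.1%). The third gene tested, NOS2, was at 0.887 ± 0.503 CPM in SCR1 and 1.06 ± 0.273 CPM in KO and did not pass.

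The EGR1 promoter is shown because it carries the sites at which these partners meet. Capitals mark GGAA or TTCC and the CArG box, the SRF site, one of whose copies overlaps a TTCC.
EGR1 promoter, chr5:138465229-138465478, plus strand: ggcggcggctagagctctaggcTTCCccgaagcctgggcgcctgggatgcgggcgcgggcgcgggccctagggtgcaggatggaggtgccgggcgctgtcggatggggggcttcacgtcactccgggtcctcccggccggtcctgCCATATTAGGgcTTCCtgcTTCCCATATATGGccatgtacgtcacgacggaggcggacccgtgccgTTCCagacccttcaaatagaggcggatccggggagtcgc
This stretch holds 2 CArG boxes and 4 ETS cores, and 1.16% of promoters of this length hold a CArG box. The FOS promoter, over a window of the same length, holds 0 CArG boxes and 1 ETS core. Bases more than 250 before the FOS start were not searched, so an SRF site there would not be counted. Binding of ELK3 or SRF to either promoter was not analysed here.

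**Figure D4:**
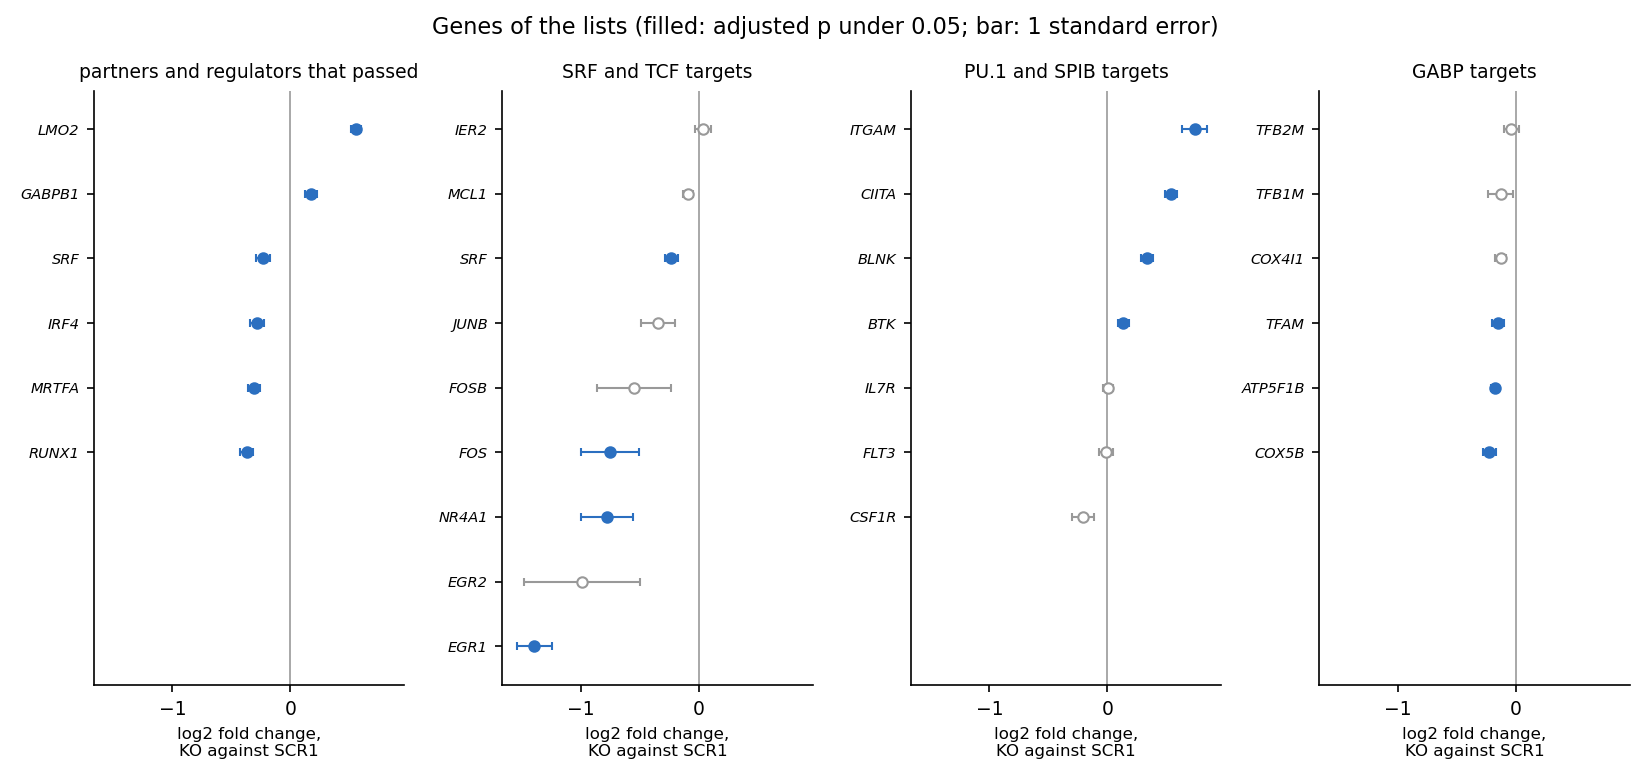
Log2 fold change of CPM in KO against SCR1 (x axis, the same in every panel) with bars of 1 standard error for the 6 partners that passed the test and the tested genes of 3 target lists. Filled points passed the test, all 4 of the SRF and ternary complex factor targets on the left of 0 and all 4 of the PU.1 and SPIB targets on the right.

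Among 10 genes known as PU.1 or SPIB targets, 7 were tested and 4 passed (57.1%, beside 20.7% of all genes in either direction and 10.1% as higher), all higher in KO, and SPI1 and SPIB themselves did not pass. The median log2 fold change was 0.14. CIITA, the master regulator of class II major histocompatibility genes, was at 188, 203 and 195 CPM in SCR1 and between 264 and 301 CPM in KO (0.54, SE 0.047, adjusted p = 1.82e-06, edgeR). BLNK, an adaptor of the B cell receptor, rose from 122 ± 3.62 to 154 ± 9.08 CPM (0.34, adjusted p = 2.94e-04). CIITA and BLNK kept their calls in all 15 alternatives.

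ITGAM, the myeloid integrin alpha M, was at 6.86, 7.41 and 6.14 CPM in SCR1 and between 10.3 and 12.3 CPM in KO, with a log2 fold change of 0.74 (adjusted p = 1.62e-04, edgeR), a call lost with the gene length offset (0.0713) and with limma on log2(TPM + 1) (0.121). ITGAM is also on the list of myeloid markers, where MPO rose as well (1.08, adjusted p = 8.94e-04) while CSF1R, on both lists, did not pass (-0.21, adjusted p = 0.124). FCGR3A, a further myeloid marker, was at 0 in every library. The part of myeloid cells in these results was not tested. BTK, a kinase of the B cell receptor, rose from 136 ± 3.03 to 149 ± 5.73 CPM (0.14, adjusted p = 0.0361). Its call was lost without any one of 6 libraries, namely sgRNA_96 replicate 4, sgRNA_97 replicates 1 and 4 and the 3 SCR1 libraries, with adjusted p from 0.0504 to 0.150, and with no filter on low counts (0.0988). IL7R and FLT3 had log2 fold changes of 0.0064 and -0.0070.

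All 6 genes of the GABP list were tested and 3 passed (beside 20.7% of all genes in either direction and 10.6% as lower), all lower. COX5B, a subunit of cytochrome c oxidase, fell from 87.8 ± 3.84 to 75.3 ± 3.89 CPM (log2 fold change -0.22, adjusted p = 0.00656, edgeR) and ATP5F1B, a subunit of ATP synthase, fell from 1009.6 ± 40.6 to 894 ± 12.9 CPM (-0.18, adjusted p = 0.00261). TFAM, the mitochondrial transcription factor, fell by -0.15 (adjusted p = 0.0429), a call lost without sgRNA_96 replicate 3, without any sgRNA_97 library and without SCR1 replicate 3 or 4 (adjusted p from 0.0609 to 0.276). The median log2 fold change of the list was -0.14.

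Genes whose pattern over the 9 libraries was most like that of ELK3 were ranked by the root-mean-square difference of centred log2 CPM among 9571 genes with a mean of at least 10 CPM. The nearest were GBP4 (0.0725), FAT3 (0.0742), ABLIM1 (0.0768), F13A1 (0.0814) and SH3BP5 (0.0880), where the median gene had 0.383. All points of a profile share the 9 libraries and the contrast that ELK3 was chosen on, so their levels are a description. GBP4 was at 63.3 ± 2.51 CPM in SCR1 and 99.3 ± 6.69 CPM in KO. F13A1, the A subunit of coagulation factor XIII, was at 151 ± 10.0 CPM in SCR1 and 279 ± 13.9 CPM in KO. No member of the ETS family was among the 5.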

How the data were processed

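RNA from 9 libraries of HAL-01 cells was measured by poly(A) RNA-seq. The authors used TrimGalore, STAR on hg38 and, for transcript abundance, Salmon 1.10.1. They deposited estimated counts per transcript, without normalization, and TPM, which Salmon scales to a fixed total. The annotation release was not given in the sources used here, and all 252835 transcripts matched GENCODE 44. Fractional values made up 87.8% of the deposited non-zero counts.

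Counts were summed per gene and rounded, filtered with filterByExpr (minimum count 10), scaled by TMM and tested by edgeR's quasi-likelihood method (edgeR 4.0.16, R 4.3.3) over 14436 genes, with Benjamini-Hochberg adjustment and a threshold of 0.05. KO against SCR1 was fitted with 2 groups and the guide comparisons with 3 groups. CPM are counts over the scaled library size. Alternatives were DESeq2 1.42.0, RLE size factors, no filter, a replicate block, a gene length offset, limma 3.58.1 on log2(TPM + 1) and leaving out each library. The fits were tested on simulated data before use.

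The members and lists were chosen with earlier results of these data known, and the lists were not adjusted on their own. Genes named are the members, other ETS genes, up to 4 called genes of each list, genes within 500 kb of ELK3, ETS1, FLI1, ETS2 or ERG, the 5 genes most like ELK3, and MEF2C. ITGAM's relatives on the marker list and genes of the lists that did not pass were named after their values were seen. Same-numbered libraries did not deviate together, with correlations of -0.084 to 0.066, so the numbers were not used for pairing. Some genes of the lists are counted but not reported by name here.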

Additional observations from a re-analysis of the deposited data

Results flagged for a closer look

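For 2 of 19 genes examined, 1 of the 6 knockout libraries stood apart from the rest by Dixon's criterion at 95%. Chance would flag about 1 in 20 genes, or 0.95 of 19. FLI1 was at 153.6 CPM in sgRNA_96 replicate 1 and between 143 and 146 CPM in the other knockout libraries, a gap of 0.705 of the range. MEF2C was at 553 CPM in sgRNA_97 replicate 1 and between 495 and 510.2 CPM in the others, a gap of 0.737 of the range. Leaving this library out gave MEF2C a log2 fold change of -0.14 in KO, with an adjusted p of 0.0143 by edgeR, and FLI1 did not pass with or without its library.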

How the results depend on the processing

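ELK3, ETV6 and ERG kept their direction in KO under all 15 alternatives, and ETV6 and ERG kept their calls. The number of members called in KO was 4 in the main analysis, 7 with DESeq2, 3 with a gene length offset and 3 with limma on log2(TPM + 1). ELK3, selected on its rise in KO, is in each of these counts. Of the 14436 genes tested under these settings, 3253 were called with DESeq2. Genes called in KO numbered 2984, but 1526 with the length offset, 1240 with limma and between 1503 and 3547 when 1 library was left out, with 1503 without SCR1 replicate 1 and 1813 without SCR1 replicate 4. For sgRNA_96 the 1615 became 661 and 448, and between 743 and 1989 with 1 library left out (743 without sgRNA_96 replicate 3, 774 and 916 without SCR1 replicates 1 and 4). For sgRNA_97 the 2181 became 925 and 706, and between 987 and 1791 (987 and 1243 without SCR1 replicates 1 and 4, 1056 without sgRNA_97 replicate 3). For sgRNA_97 against sgRNA_96 the 3 became 8 with DESeq2, 1 with the length offset, 0 with limma (626 genes at an unadjusted p under 0.05), 106 without a filter, and 1 to 3 with 1 library left out. Of the lists, the SRF and ternary complex factor targets had 4 genes called, 2 with the length offset and 1 with limma, the partners 6, 5 and 2, the PU.1 and SPIB targets 4, 2 and 2, and the GABP targets 3, 2 and 2. The called genes that did not pass with limma were ETS1, ELK4, ELF4, SRF, MRTFA, GABPB1, IRF4, FOS, NR4A1, BTK, ITGAM, TFAM, LTA4H and SNRPF, and of these all but ELK4, SRF and IRF4 also did not pass with the length offset, all in the same direction as before. The cause was not tested.

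With the replicate block, 2936 genes were called in KO, 1576 with sgRNA_96, 2082 with sgRNA_97 and 1 between the guides. The number of members called in KO was 4 as before, ELK3 included. Among the genes named, the block changed 1 call, that of ELF1 with sgRNA_97 (adjusted p = 0.0637). Since same-numbered libraries share only a number, the block is not read as pairing.

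Signs turned for the comparisons that follow, none of which passed the test. Between the guides, ELK3 was -0.075 with the length offset and -0.080 with limma. With 1 library left out ELK3 ran from -0.014 to 0.073, ETS2 from -0.052 to 0.0064, ERG from -0.044 to 0.023, FLI1 from -0.035 to 0.017, ETV6 from -0.026 to 0.090, SPI1 from -0.145 to 0.0015, SPIB from -0.00045 to 1.098 and GABPA from -0.027 to 0.069. SPI1 with sgRNA_96 ran from -0.090 to 0.054 and ELF2 in KO from -0.015 to 0.029. Counts of 7 to 51 limit SPIB.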
